A study of Rattus norvegicus with 13 samples.

Results

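WKY and SHR/OlaIpcv (SHR) are related rat strains that carry the same *Prdm9* allele, and meiotic double-strand break (DSB) hotspots were compared between wild-type adult males of both strains. The comparison rests on 22290 windows of 3000 bp on the 20 autosomes, which are 24.5% of the 91120 autosomal windows (1 of these had another length) and belong to a table of 96640 windows. A window was taken when its hotspot strength was 100 or more in WKY and 25 or more in SHR. Of the other autosomal windows, 10804 passed the WKY minimum alone, 2317 passed the SHR minimum alone and 55709 passed neither. The selected windows held 71.3% of the summed WKY strength and 81.9% of the summed SHR strength. Both strengths entered the selection, so the presence of signal in both strains at these windows is not a result.

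The series holds 13 samples, of which 5 are DMC1 libraries of adult testis made by sequencing of single-stranded DNA bound to DMC1 (SSDS). WKY wild-type and SHR wild-type gave 1 library each, so the difference between the strains has no replicate check, and strain, animal and library cannot be told apart. SHR was also represented by a *Prdm9*+/- library (KO/wt in the plots), in which the same allele is present in a single copy, and by a *Prdm9*-/- library (KO/KO). According to the study the mutant was homozygous for a truncating deletion and the SHR wild-type male was its littermate; the BN/RIJHsd (BN) wild-type library came from a strain with another allele.

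PRDM9 is a histone methyltransferase of spermatocytes and oocytes. Its zinc fingers bind a DNA motif, nearby histone H3 is trimethylated at lysine 4, and SPO11 then cuts the DNA at a hotspot. The ends are resected to single strands that are coated by DMC1, a recombinase of meiosis, and DMC1-bound DNA therefore maps the breaks. The zinc-finger array differs among alleles and sets which motif is bound, so strains that share an allele also share the protein's DNA preference, whereas the sequence of each site and the chromatin around it can still differ between them.

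Codons of the DNA-contacting helices are shown because the shared array is the premise of the comparison. The SHR wild-type genomic sequence that was read covered 399 bases of the array and broke off there, which left 5 fingers with a full helix. Each line gives 21 bases (7 codons) of a helix, and capitals mark the 3 codons usually taken to contact DNA.
SHR finger 1: GATaagtcaAATgtcagtGAG
SHR finger 2: CAGaagtcaGACctcatcAAG
SHR finger 3: CAGaagtcaAGCctcatcCAG
SHR finger 4: CAGaagtcaGACctcatcAAG
SHR finger 5: CGGaagtcaAACctcatcCAG
Fingers 2 and 4 were identical over this stretch. Fingers 2 to 5 differed in the capitals alone, and finger 1 differed from them in lower-case bases too. The WKY array was not used here; that it is the same allele is taken from the study.

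Strength is a score of unstated scaling that can be negative, and sequencing depth in reads is unknown. The autosomal sum, with negative strengths set to 0, was 12771894 in WKY and 2772601 in SHR, so the WKY sum was 4.61 times the SHR sum. The *Prdm9*+/- sum was 3375943, which is 1.22 times the SHR sum. Each strength was divided by its library's sum, and the log2 of WKY over SHR was taken. On this scale an SHR strength of 25 corresponds to a WKY strength of 115. All ratios are therefore relative to the library and do not compare the number of breaks per cell. Intervals are 95% intervals over windows, which are not replicates.

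At most of the selected windows, WKY and SHR relative strengths lay within 2-fold of the median ratio. The minimums limit how far the strengths can differ, so this closeness is partly a product of the selection. Strengths at the 22290 windows ran from 100 to 26104 in WKY with a median of 304, and from 25 to 7282 in SHR with a median of 66. The median log2 ratio was -0.04 (-0.06 to -0.03), its 5th percentile -1.41 (-1.44 to -1.38) and its 95th percentile 1.14 (1.12 to 1.17). The sign of the median depended on the scaling: dividing by the sum over windows called in both strains gave 0.19. Ratios are therefore given from here on as centered log2 ratios, that is, less their median over all ratio windows, and WKY-higher or SHR-higher is relative to that median.

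Of the ratio windows, 1815 (8.14%, 7.79 to 8.51) were WKY-higher by 2-fold or more and 2349 (10.5%, 10.1 to 10.9) were SHR-higher by 2-fold or more, together 18.7%. Differences of 4-fold or more were found at 144 windows on the WKY side and 261 on the SHR side. The lean changed with strength, in a direction that depended on how the windows were ordered. Windows were put in 10 groups by the geometric mean of both scaled strengths. In the strongest group 1.88% were WKY-higher and 19.1% SHR-higher by 2-fold, whereas in group 3 from the weakest these were 14.0% and 8.21%. In the weakest group, where the minimums limit the ratio, they were 0% and 0.54%. At WKY-higher windows the median strength was 437 in WKY and 37 in SHR, and in the *Prdm9*+/- library, which took no part in the choice, it was 38, or 31.2 when scaled to the SHR sum. At SHR-higher windows the medians were 233 in WKY, 152 in SHR and 170 in *Prdm9*+/- (139.6 when scaled). At windows within 2-fold they were 294, 64 and 57 (46.8 when scaled). The order of the 3 groups in the *Prdm9*+/- library was thus that in wild-type SHR.

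The spread of the ratio was set against that between the SHR libraries over the 18395 ratio windows with a *Prdm9*+/- strength of 25 or more. The SD of the log2 ratio was 0.81 for WKY over SHR, 1.01 for WKY over *Prdm9*+/- and 0.62 for *Prdm9*+/- over SHR. In the last pair, 5.41% of the windows were at least 2-fold higher and 5.02% at least 2-fold lower, against 8.69% and 11.1% for WKY over SHR and 14.1% and 17.6% for WKY over *Prdm9*+/-. The pairs share libraries and the SHR libraries differ in *Prdm9* copy number, so the last pair is no replicate of wild-type SHR.

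**Figure D1:**
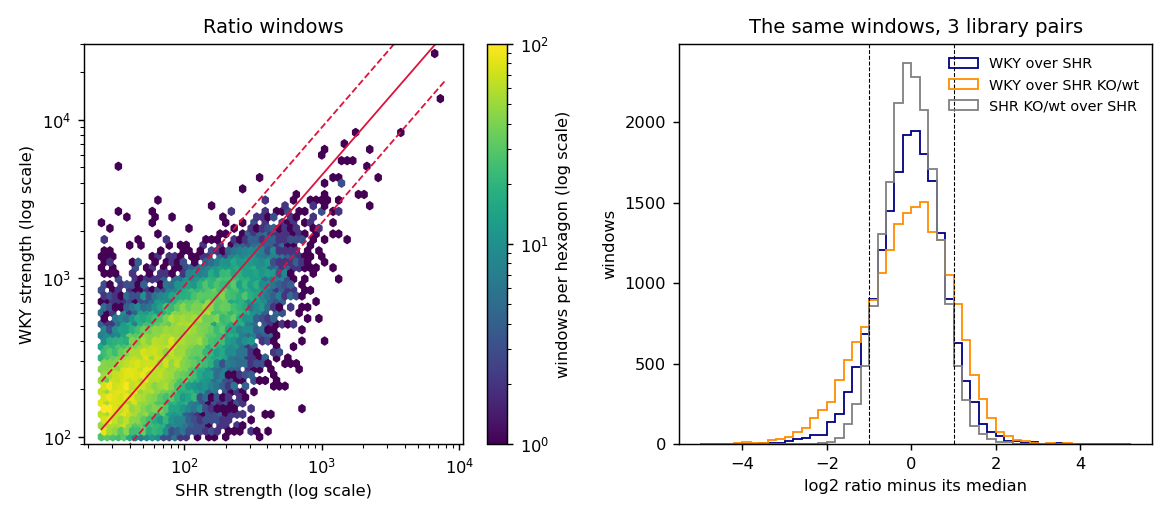
Left, WKY strength against SHR strength (log axes) at the 22290 ratio windows, shaded by windows per hexagon on a log scale; the solid line is the median ratio and the dashed lines lie 2-fold to either side. Right, histograms of the log2 ratio less its median at the 18395 windows with a *Prdm9*+/- (KO/wt) strength of 25 or more, for 3 library pairs; the curve of *Prdm9*+/- over SHR (SD 0.62) is narrower than those of WKY over SHR (0.81) and WKY over *Prdm9*+/- (1.01).

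Windows at the minimums are given as a description, since a strength fixed near its minimum sets the side of the ratio. Windows just inside the SHR minimum (SHR strength 25 to 27, 1191 windows) had a median centered log2 ratio of 0.59, and those just outside (22 to 24, 1312 windows) 0.68. Less than 10 above the WKY minimum (507 windows) the median was -0.63, and up to 10 below it (408 windows) -0.69. With minimums of 200 and 50, 5.49% of the windows were WKY-higher and 8.88% SHR-higher by 2-fold.

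Hotspot calls leaned to WKY, unlike the 2-fold counts. Both strains had a call at 17016 of the ratio windows (76.3%), WKY alone at 3955, SHR alone at 650 and neither at 669. Over all autosomal windows 38.3% were called in WKY and 21.8% in SHR. BN, which carries the other allele, had a call at 660 of the ratio windows (2.96%), beside 20.8% over all autosomal windows. *Prdm9*-/- had a call at 397 (1.78%), beside 38.8%. A further window of the table overlapped 4474 of them (20.1%), and such windows share reads; windows that overlapped no other were 7.65% WKY-higher and 10.9% SHR-higher.

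Single windows that overlapped no other were examined at both extremes, in rn5 coordinates. Among windows with a WKY strength of 1000 or more, the highest ratio was at chr2:134263332-134266332, where WKY had a strength of 5059 and both SHR libraries 33. Its centered log2 ratio was 5.10, a relative difference of 34.3-fold. The next was chr9:84598201-84601201, with 2231 in WKY, 26 in SHR and 38 in *Prdm9*+/-. Both SHR libraries were low at these hotspots, although the window of chromosome 9 was called as a hotspot in both of them. The other 3 named windows, on chromosomes 7, 3 and 2, had WKY strengths of 2611, 1800 and 1722 beside SHR strengths of 34, 25 and 27 and *Prdm9*+/- strengths of 16, 16 and -1. Of these 3, that of chromosome 7 alone was called in SHR, and none was called in *Prdm9*+/-.

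Among windows with an SHR strength of 250 or more, the lowest ratio was at chr5:2541655-2544655, with 149 in WKY, 746 in SHR and 891 in *Prdm9*+/-. The relative difference was 22.4-fold, with a centered log2 ratio of -4.48. It was followed by chr3:64087233-64090233, with 109 in WKY, 395 in SHR and 703 in *Prdm9*+/-. Windows on chromosomes 10, 15 and 7 came next, with 103, 144 and 142 in WKY, 368, 425 and 405 in SHR and 446, 557 and 585 in *Prdm9*+/-. All 5 were called as hotspots in WKY too; a WKY strength of 100 or more was a condition of the choice.

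Windows strong in a strain but below the minimum in the other were counted apart from the ratios. They are termed without signal here, whatever their hotspot calls. Of 6102 autosomal windows with a WKY strength of 500 or more, which corresponds to 109 on the SHR scale, 471 (7.72%, 7.08 to 8.42) had an SHR strength below 25. Their median strength was 744 in WKY and 5 in SHR, and 431 were called as hotspots in WKY and 10 in SHR. In the *Prdm9*+/- library 420 of the 471 (89.2%, 86.0 to 91.7) were below 25 as well, against 91 (1.62%, 1.32 to 1.98) of the 5631 strong WKY windows with SHR signal. A low SHR value at these windows was therefore seen again in another animal of the strain. Of the 471, 47 (9.98%) were called in BN, against 177 (3.14%) of the 5631. Both shares were below the 20.8% called in BN over all autosomal windows.

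The strongest was chr1:58462998-58465998, with 9447 in WKY, 5 in SHR, 9 in *Prdm9*+/- and -3 in *Prdm9*-/-. BN, with the other allele, had a called hotspot of strength 1519 there. At chr16:81089239-81092239 the strengths were 2983 in WKY, 3 in SHR, 1 in *Prdm9*+/- and 1 in BN. The other 3, on chromosomes 7, 1 and 7, had 2801, 2788 and 2678 in WKY, 12, -2 and 4 in SHR and 14, 9 and 25 in *Prdm9*+/-.

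**Figure D2:**
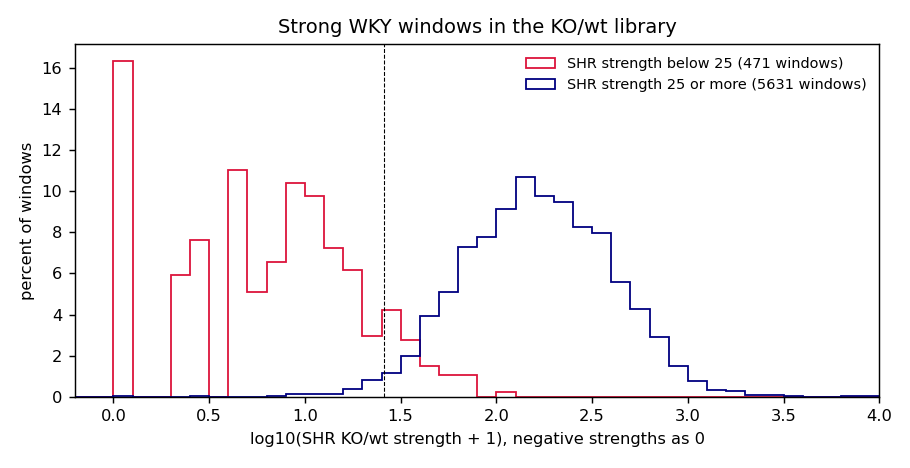
Percent of strong WKY windows (strength 500 or more) by their strength in the SHR *Prdm9*+/- (KO/wt) library, as log10(strength + 1) with negative strengths as 0, for the 471 windows with an SHR strength below 25 and the 5631 with 25 or more; the dashed line marks a strength of 25. Of the 471, 89.2% lie below the line, and of the 5631, 1.62%.

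In the other direction, 393 of 7482 windows with an SHR strength of 100 or more (5.25%, 4.77 to 5.78) had a WKY strength below 100. Their medians were 169 in SHR, 33 in WKY and 198 in *Prdm9*+/-. In *Prdm9*+/- 392 of the 393 had a strength of 25 or more and 377 (95.9%) were called as hotspots. Of the 7089 strong SHR windows with WKY signal, 7080 had a *Prdm9*+/- strength of 25 or more and 92.7% were called. A *Prdm9*+/- strength of 100 or more was found at 85.5% of the 393 and 82.2% of the 7089, so signal in that library was about as frequent in both sets. WKY had a call at 33 of the 393 (8.40%), against 95.3% of the 7089 and 38.3% of all autosomal windows. The sets were split by WKY strength, so this contrast is not a result.

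The strongest was chr5:2829884-2832884, with 1241 in SHR, 1842 in *Prdm9*+/- and 14 in WKY. It lay on the same chromosome, within the same 5 Mb, as the window of lowest ratio. At chr11:84060598-84063598 the strengths were 1220 in SHR, 1896 in *Prdm9*+/- and 45 in WKY. The 3 others, on chromosomes 17, 1 and 2, had 898, 719 and 719 in SHR, 1018, 737 and 1040 in *Prdm9*+/- and 11, 32 and 9 in WKY. The minimums differ in relative terms (an SHR strength of 100 corresponds to 461 in WKY), so the 2 shares are not set against each other.

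These windows were unevenly placed. Of 371 bins of 5 Mb with 8 or more strong WKY windows, 170 had none without SHR signal and 32 had 25% or more. The highest shares were 6 of 8 at 20 to 25 Mb of chromosome 13, 9 of 16 at 20 to 25 Mb of chromosome 9 and 6 of 12 at 5 to 10 Mb of chromosome 20, beside the 7.72% over all. In *Prdm9*+/- too, signal was lacking at 3 of these 6 on chromosome 13, 6 of the 9 on chromosome 9 and 6 of the 6 on chromosome 20. For strong SHR windows, 257 of 464 such bins had none without WKY signal and 12 had 25% or more. The highest were 8 of 16 at 250 to 255 Mb of chromosome 2 and 7 of 14 at 80 to 85 Mb of chromosome 11, beside the 5.25% over all. By chromosome, the share of strong WKY windows without SHR signal ran from 3.05% on chromosome 14 (9 of 295) to 13.9% on chromosome 20 (16 of 115). These ends were also the ends for strong SHR windows without WKY signal, with 2.02% on chromosome 14 (7 of 346) and 14.4% on chromosome 20 (20 of 139).

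The medians of whole chromosomes lay within 0.29 of each other. Chromosome 2 had the lowest median centered log2 ratio, -0.16 (-0.20 to -0.11, 2123 windows), and chromosome 12 the highest, 0.13 (0.07 to 0.21, 438 windows). Chromosomes 11 (-0.14, -0.21 to -0.05) and 16 (-0.08, -0.15 to -0.00496) also lay on the SHR side. Chromosomes 19 (0.10, 0.02 to 0.15) and 17 (0.10, 0.00281 to 0.17) lay on the WKY side. For the other 14 the interval held 0, and their medians lay between -0.05 (chromosome 5) and 0.07 (chromosome 15). These intervals take windows as independent, but some windows overlap and neighboring ones had similar ratios (below). They are therefore too narrow, and a side given by an interval that ends near 0, as for chromosomes 16 and 17, is not secure. Within a chromosome the SD over windows was 0.71 to 0.87.

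With the *Prdm9*+/- library as the SHR side, the same 6 chromosomes had medians of -0.13 (chromosome 2), -0.18 (11), -0.05 (16), 0.12 (12), 0.10 (19) and 0.22 (17), all on the same side of 0. For *Prdm9*+/- over SHR the 20 medians ran from -0.14 to 0.09, a range close to that between the strains. On chromosome 2 that pair differed by -0.02, and on chromosome 11 by 0.05.

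**Figure D3:**
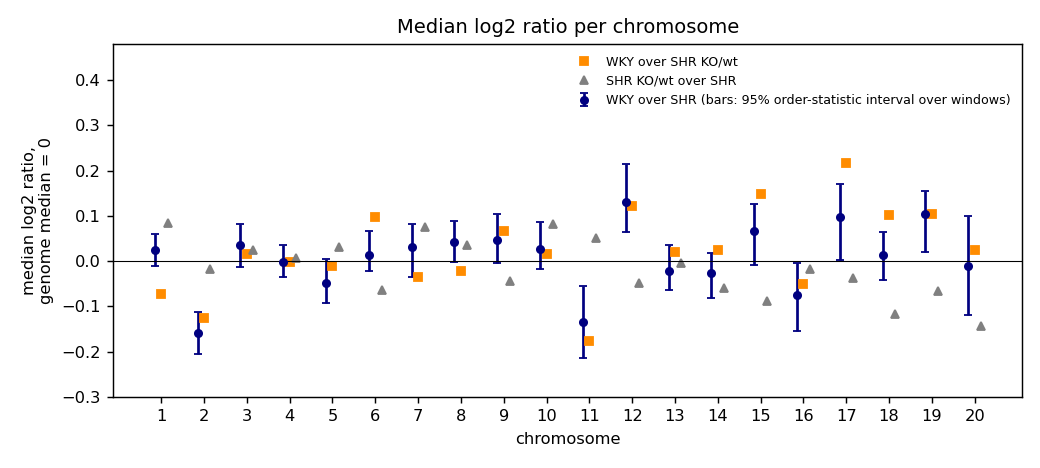
Median centered log2 ratio per chromosome (genome median 0) for WKY over SHR, with 95% order-statistic intervals over windows, WKY over SHR *Prdm9*+/- (KO/wt) and *Prdm9*+/- over SHR. WKY over SHR runs from -0.16 on chromosome 2 to 0.13 on chromosome 12; the 3 series share libraries.

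Segments of a few Mb were compared next. In 5-Mb bins with 10 or more ratio windows (524 bins, a median of 44 windows each), bin medians ran from -1.48 to 0.72. A median 0.5 or more from 0 was reached by 78 bins on the SHR side and 14 on the WKY side. The WKY-side count rested on the method: it was 8 with ratios of summed strengths and 52 with the *Prdm9*+/- library as the SHR side, while the SHR-side count was 112 and 74. Differences between bins made up 16.1% of the variance of the log2 ratio over windows with 5-Mb bins and 23.1% with 1-Mb bins. For *Prdm9*+/- over SHR the share with 5-Mb bins was 7.47%.

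Over the 521 bins that could be measured with all 3 libraries, the SD of bin medians was 0.41 for WKY over SHR, 0.48 for WKY over *Prdm9*+/- and 0.22 for *Prdm9*+/- over SHR. The last pair put 4 bins past 0.5 upwards and 14 downwards, against 23 and 83 for WKY over SHR at the same windows. Of 77 SHR-higher bins, 76 were below 0 with *Prdm9*+/- as the SHR side and 52 were past the limit. All 14 WKY-higher bins were above 0 and 9 were past it. These counts use the same WKY library and are not independent of each other.

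The bin of lowest median was at 0 to 5 Mb of chromosome 17, with a centered log2 ratio of -1.48 over 18 windows. The median strength there was 159 in WKY and 92 in SHR, and 12 of the windows were SHR-higher by 2-fold and none WKY-higher. With *Prdm9*+/- as the SHR side its median was -0.63, and *Prdm9*+/- over SHR was itself -0.69, so the SHR libraries differed there. The next bins were at 85 to 90 Mb of chromosome 16 (-1.27, 31 windows), 0 to 5 Mb of chromosome 11 (-1.25, 28 windows), 130 to 135 Mb of chromosome 8 (-1.24, 19 windows) and 90 to 95 Mb of chromosome 5 (-1.18, 17 windows). With *Prdm9*+/- they had -1.10, -1.21, -0.93 and -1.48, in the same order. These 4 bins were thus low with either SHR library.

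On the WKY side the highest bins were at 170 to 175 Mb of chromosome 3 (0.72, 38 windows), 75 to 80 Mb of chromosome 18 (0.68, 34 windows), 240 to 245 Mb of chromosome 4 (0.67, 57 windows), 125 to 130 Mb of chromosome 7 (0.63, 54 windows) and 60 to 65 Mb of chromosome 19 (0.63, 34 windows). At the first, the median strength was 426.5 in WKY and 48 in SHR. With *Prdm9*+/- the 5 bins had 0.90, 0.77, 0.94, 0.18 and 0.35. At the bin of chromosome 7 *Prdm9*+/- over SHR was itself 0.54.

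By the share of 2-fold windows in either direction, bins ran from 1.59% to 71.4% around a median of 17.2%, beside 18.7% over all windows. The highest share was at 0 to 5 Mb of chromosome 8, where 10 of 14 windows were SHR-higher and none WKY-higher. At 185 to 190 Mb of chromosome 1, 19 of 39 windows were SHR-higher and 7 WKY-higher, so this bin differed in both directions. The next 3 were the bins of chromosomes 17, 16 and 8 named above for their low medians. The lowest shares were at 120 to 125 Mb of chromosome 3 (1 of 63 windows), 85 to 90 Mb of chromosome 9 (1 of 53), 35 to 40 Mb of chromosome 7 (1 of 52), 150 to 155 Mb of chromosome 3 (1 of 34) and 95 to 100 Mb of chromosome 1 (1 of 29). These 5 bins had medians from 0.02 to 0.16, and the SD over their windows was 0.46 to 0.59.

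In 1-Mb bins with 5 or more windows (2171 bins), 227 were past 0.5 on the WKY side and 312 on the SHR side. Neighboring bins of a direction formed 38 runs on the WKY side, holding 94 of the 227 bins, and 69 on the SHR side, holding 179 of the 312. With minimums of 200 and 50 the bins past 0.5 numbered 123 and 157.

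The longest WKY-higher run was at 126 to 134 Mb of chromosome 7, with a centered median of 0.65 over 78 windows, 65 of them above 0. Median strengths were 404.5 in WKY and 51 in SHR. Its strongest window, chr7:133116982-133119982, went the other way with -0.24 (1334 in WKY, 353 in SHR, 177 in *Prdm9*+/-). The next runs were at 138 to 143 Mb of chromosome 6 (0.77, 35 of 42 windows above 0) and 241 to 245 Mb of chromosome 4 (0.75, 43 of 47 above 0). In the former, the strongest window, chr6:141081256-141084256, had 1799 in WKY, 234 in SHR and 156 in *Prdm9*+/-. With *Prdm9*+/- as the SHR side the 3 runs had 0.62, 1.02 and 1.17.

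The longest SHR-higher runs were neighbors on chromosome 2, at 85 to 90 Mb (-1.12) and 91 to 96 Mb (-1.04), each with 33 of 35 windows below 0. In the first, the strongest window, chr2:86376242-86379242, had 903 in WKY, 234 in SHR and 297 in *Prdm9*+/-, a relative difference of 1.16-fold. The next 2 by WKY strength differed by 1.83-fold and 3.79-fold. In the second, the strongest window, chr2:95583252-95586252 had 566 in WKY, 306 in SHR and 468 in *Prdm9*+/-, or 2.41-fold. The third run was at 0 to 4 Mb of chromosome 11 (-1.25, 26 of 28 windows below 0). Its strongest window, chr11:2142348-2145348, had 588 in WKY, 316 in SHR and 440 in *Prdm9*+/-, or 2.40-fold. With *Prdm9*+/- as the SHR side the 3 runs had -1.35, -0.93 and -1.21. The windows named in runs are the strongest in WKY that overlap no other, a choice made after their values were seen.

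**Figure D4:**
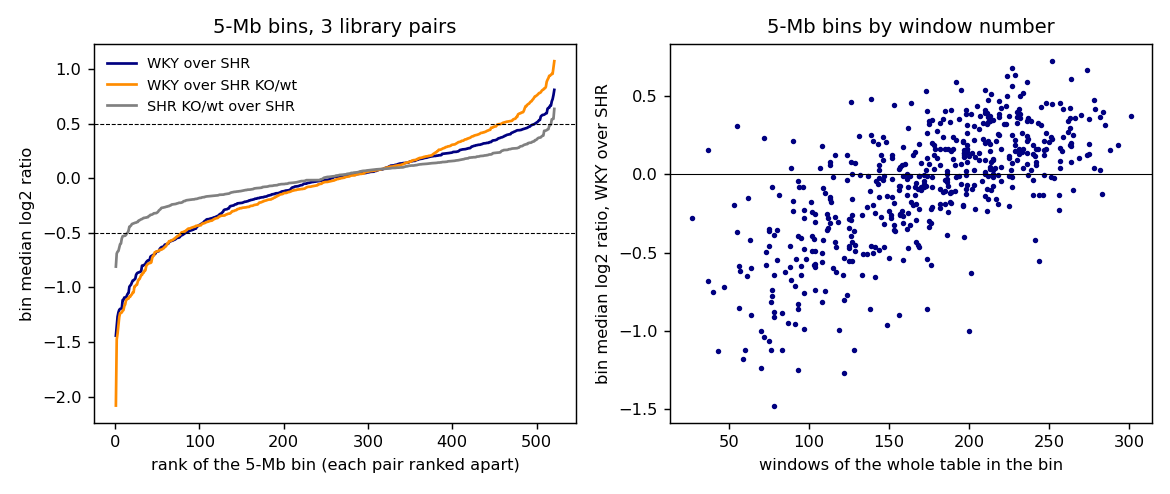
Left, medians of 5-Mb bins in rank order for 3 library pairs over the 521 bins measured in all, each pair ranked apart; dashed lines mark 0.5 to either side. Right, the centered WKY over SHR median of the 524 bins against the number of windows of the whole table in the bin (27 to 301). Sparse bins lie lower.

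Bins with few windows tended to the SHR side. The bins were split into 5 groups by how many windows of the whole table they held, a number that counts the calls of all 5 libraries. The median of bin medians was -0.50 in the sparsest group (27 to 115 windows), then -0.25, -0.02 and 0.13, and 0.20 in the densest (227 to 301 windows). Of the sparsest 105 bins, 52 were SHR-higher past 0.5 and 0 WKY-higher, whereas of the densest 105, 1 was SHR-higher and 7 WKY-higher. Median strength was 226.5 in the sparsest and 348 in the densest group in WKY, and 70 and 61 in SHR. With *Prdm9*+/- as the SHR side the 5 medians were -0.49, -0.22, 0.00167, 0.20 and 0.29.

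As a description over the 524 bins, the bin median had a Spearman rho of 0.68 with the number of windows and of 0.62 with the number of *Prdm9*-/- calls, which come from neither strain's wild-type library. For *Prdm9*+/- over SHR these were -0.17 and -0.25. With the number of calls in WKY, BN and SHR the bin median had a rho of 0.60, 0.59 and 0.31, so the relation was not particular to *Prdm9*-/- calls. All these numbers share windows, and their part in the ratio was not tested.

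Chromosome ends showed a change of side within a few Mb. Distance was counted back from the last window of each chromosome. Windows within 2 Mb had a median centered log2 ratio of -0.79 (-0.94 to -0.64, 250 windows), with median strengths of 199 in WKY and 78.5 in SHR. The median was below 0 on each of the 19 chromosomes with 5 or more such windows, from -2.13 on chromosome 14 to -0.11 on chromosome 3. Chromosome 18, with 4 windows, had 0.40. From 2 to 5 Mb the median was -0.29, with 12 of 20 chromosomes below 0.

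Farther in, the median was 0.24 (0.19 to 0.29, 953 windows) at 5 to 10 Mb and 0.23 (0.20 to 0.28, 1728 windows) at 10 to 20 Mb, with 17 of 20 chromosomes above 0 in both. It then went to 0.11 at 20 to 40 Mb, -0.01 at 40 to 80 Mb and -0.08 beyond. With *Prdm9*+/- as the SHR side the values were -0.84 within 2 Mb and 0.54 at 5 to 10 Mb. *Prdm9*+/- over SHR was 0.01 within 2 Mb and -0.20 at 5 to 10 Mb. Counted from the first window, the medians were -0.29 within 2 Mb (12 of 17 chromosomes below 0), -0.37 at 2 to 5 Mb and 0.11 at 5 to 10 Mb. With wild-type SHR, both ends were thus on the SHR side in their outermost 5 Mb. At 2 to 5 Mb, however, the SHR libraries themselves differed. From the last window, WKY over *Prdm9*+/- was -0.09 there and *Prdm9*+/- over SHR was -0.26. From the first window these were -0.23 and -0.22, and WKY over SHR was below 0 on 13 of 17 chromosomes. Of the 5 lowest bins named above, those of chromosomes 17 and 11 were the first of their chromosome, those of chromosomes 16 and 8 lay at the far end and that of chromosome 5 lay in the interior.

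**Figure D5:**
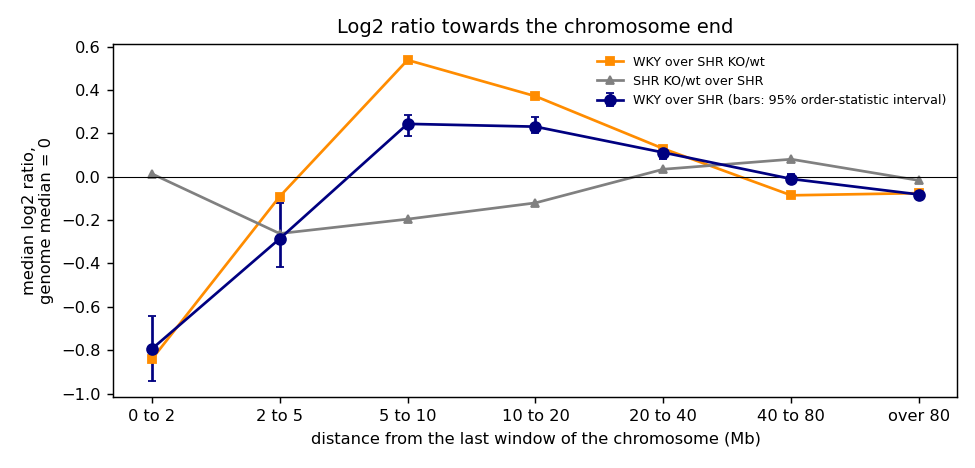
Median centered log2 ratio (genome median 0) by distance from the last window of the chromosome in Mb, for WKY over SHR with 95% order-statistic intervals, WKY over SHR *Prdm9*+/- (KO/wt) and *Prdm9*+/- over SHR. WKY over SHR goes from -0.79 within 2 Mb to 0.24 at 5 to 10 Mb and back to -0.08 beyond 80 Mb.

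Neighboring windows resembled each other at short range. The correlation of centered log2 ratios over pairs of windows was 0.77 below 3 kb, where windows overlap and share reads, 0.37 at 3 to 10 kb (1589 pairs) and 0.27 at 10 to 100 kb (19908 pairs). It was 0.16 at 100 kb to 1 Mb, 0.13 at 1 to 2 Mb, 0.07 at 2 to 5 Mb and 0.01 at 10 to 20 Mb. After the median of the 5-Mb bin was taken off, it was 0.14 at 10 to 100 kb and 0.02 at 100 kb to 1 Mb. Pairs share windows and libraries, and these correlations are descriptions.

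Gene annotation of the segments was not analyzed, since the windows are in rn5 coordinates and the gene tables used here are of another build.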

How the data were processed

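DMC1 SSDS libraries of adult testis were aligned by the authors to rn5 with a modified BWA (0.7.12), and hotspots were called from uniquely mapping single-stranded fragments. The authors deposited a table of merged windows with a strength per library, a score whose computation and scaling are not given in the sources used here, and a call of 0 or 1. Coordinates are as deposited. No counts were used, so depth is unknown.

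Negative strengths were set to 0, each library was divided by its autosomal sum, and log2 ratios were taken without a pseudocount in windows past both minimums (Python 3.11.15, pandas 2.3.3). No test was run, as there was 1 library a side. Intervals are Wilson intervals for shares and binomial order-statistic intervals for medians, at 95%, over windows. They take windows as independent, although neighboring windows had similar ratios, and they cover neither animals nor libraries.

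Named single windows (5 per list, overlapping no other), bins (5 per list) and runs (3 per direction) were the extremes of each list. The windows, lists and limits were chosen with earlier results of these data known. The code was tested on simulated segments. H3K4me3 and input libraries were not analysed here.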

Additional observations from a re-analysis of the deposited data

Results flagged for a closer look

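The SHR *Prdm9*-/- library, which no comparison between the strains uses, had a strength of 25 or more at 914 of the 22290 ratio windows (4.10%, 3.85 to 4.37). It was flagged as signal outside the main measurement, not as frequent signal. *Prdm9*-/- calls were at 1.78% of the ratio windows, beside 38.8% of all autosomal windows. At these windows the SD of the log2 ratio was 1.02, against 0.78 at the other 21376, and 29.5% differed by 2-fold or more, against 18.2%. The largest clusters, which held a minor part of the 914, were at 9 to 10 Mb of chromosome 15 (27 of 40 ratio windows), 186 to 187 Mb of chromosome 1 (21 of 24) and 21 to 22 Mb of chromosome 7 (18 of 21).

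In the cluster of chromosome 15 all 27 windows had a centered log2 ratio above 0, whereas on chromosome 1 the ratio was above 0 at 2 and below at 19, and on chromosome 7 above at 5 and below at 13. In the clusters of chromosomes 15, 1 and 7, 23, 15 and 13 of these windows overlapped another window. Such windows share reads, so the counts are not of separate sites. The median BN strength was 123, 66 and 79, in the same order. At chr1:186986485-186989485 the strengths were 973 in WKY, 1307 in SHR, 1800 in *Prdm9*+/- and 753 in *Prdm9*-/-. At chr1:186641229-186644229 they were 993 in WKY, 32 in SHR, 69 in *Prdm9*+/- and 35 in *Prdm9*-/-. At 185 to 190 Mb of chromosome 1 the median centered log2 ratio was -0.97 over 39 windows, and 0.22 over the 17 with a *Prdm9*-/- strength below 25. Of the 14 WKY-higher and 78 SHR-higher 5-Mb bins, 13 and 71 were past 0.5 without such windows too. The part of the *Prdm9*-/- signal in these differences was not tested.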

How the results depend on the processing

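Of 121 values recomputed under alternatives, 92 stayed within their interval or within 1.5 times the count, 27 moved and 2 changed sign. Some of the 92 could not change. Another scaling, or keeping negative strengths, shifts every log2 ratio equally, so centered values, bin counts and the variance share stay as they were. The shares of strong windows without signal use neither the scaling nor the minimums of 200 and 50. The count of 92 therefore overstates how stable the values were. No paired analysis was possible because neither strain had a second wild-type library. The median log2 ratio, -0.04, became 0.19 when scaled by windows called in both strains and 0.22 with the *Prdm9*+/- library as the SHR side, -0.069 with negative strengths kept, -0.15 with minimums of 200 and 50, and -0.085 over windows called in both strains. The 5th percentile became -1.17, -1.58 and -1.48 with the scaling by called windows, with *Prdm9*+/- and over called windows. The 95th became 1.38 and 1.64 with the former 2, 1.11 without overlapping windows and 0.88 with minimums of 200 and 50. With those minimums 5.49% of the windows were WKY-higher and 8.88% SHR-higher by 2-fold, and 123 and 157 of the 1-Mb bins passed 0.5. Over called windows 11.3% were SHR-higher, and the strong windows without signal fell to 0.198% for WKY and 0.433% for SHR as this choice takes windows with signal in both. With *Prdm9*+/- 13.2% and 17.1% were WKY-higher and SHR-higher, 7.19% of strong SHR windows lacked WKY signal, 52 of the 5-Mb and 391 of the 1-Mb bins were WKY-higher past 0.5, and 7 instead of 53 bins had at least 2 times the share of 2-fold windows over all. A strong window of 1000 in WKY or 250 in SHR gave 9.62% and 6.76% without signal, and summed strengths gave 8 WKY-higher 5-Mb bins. The median of *Prdm9*+/- over SHR, -0.27, became -0.28 without windows of *Prdm9*-/- strength 25 or more. Leaving out those windows and recomputing the last 2 Mb of chromosomes or the *Prdm9*+/- over SHR median were chosen after seeing the data. The last 2 Mb lay between -0.90 and -0.77 under every alternative run. Causes were not tested. The depth of the libraries in reads is unknown.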
